A study of Mus musculus with 6 samples.

Results

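Hox genes encode homeodomain transcription factors that give cells of the embryo their position along the body and limb axes, and they lie in 4 clusters named Hoxa to Hoxd. Within a cluster the genes are numbered by position, and genes with the same number in different clusters are paralogs. Low numbers are generally used early and towards the head, and high numbers late and towards the tail. In the limb, posterior Hoxa and Hoxd genes pattern the segments from shoulder or hip to digits, while Hoxb genes are better known from the trunk, neural tube and blood cells. The members were chosen as array probes whose gene name is a Hox cluster letter with a number. Of 39 genes so named, 38 are described here, measured by 42 probes on 60 spots, of 35077 genes on the array. There are 10 Hoxa, 10 Hoxb, 9 Hoxc and 9 Hoxd genes. They were grouped by number into anterior (1 to 4), central (5 to 8) and posterior (9 to 13) genes.

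The interzone is the band of flattened cells that forms where a joint will separate 2 skeletal elements. Total RNA from the intermediate and the outer interzone of mouse embryos at 15.5 days of gestation was measured on 1-colour Agilent arrays, 3 per layer, and each replicate was 1 embryo. The labels name no strain, genotype or treatment, and the joint or limb taken and the way the layers were separated are not given in the sources used here. Comparing the layers asks which Hox genes differed between the layers, and differences are given as outer minus intermediate. Values are log2 processed signals relative to each array's 75th percentile, so that 0 is the 75th percentile and each step of 1 is a doubling. They compare a gene between layers, and do not rank probes against each other.

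The 75th percentile of the signal ran from 144 to 344 in the intermediate and from 47.4 to 290 in the outer layer, and outer replicate 1 was the dimmest array. On that array 35.6% of spots were well above background, against 45.1% to 53.4% on the others. Its lowest signal well above background lay at -1.82, against -4.66 to -3.60 on the other 5 arrays, so dim genes could not be measured there. The interzone genes Gdf5, Wnt9a, Wnt4 and Erg were above background on all 6 arrays. Scaling each array to its median instead moved the median difference of all genes by -0.39. Intermediate arrays and outer replicate 1 shared a slide, and outer replicates 2 and 3 lay on another.

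Sequence examples show what the probes and the gene starts look like. Across the family the homeobox is the most alike stretch, and it encodes the part of the protein that contacts DNA. The letters TGGTTNCAG, searched on the strand of the probe, come from the core of that stretch. They were held by 2 of the 42 Hox probes (4.76%) and by 81 of 55672 probes on the array (0.145%). The Hoxc11 probe is shown because paralogs are hardest to tell apart there. The match is in capitals, and its mm9 position is chr15:102787022-102787081 on the plus strand.
Hoxc11 probe: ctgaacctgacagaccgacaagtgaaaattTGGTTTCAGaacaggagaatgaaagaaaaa
The Hoxc11 probe was well above background on 5 arrays. None of the 3 genes that passed the test below was measured by a probe with these letters.

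The bases just before a gene's start are shown for 2 genes of the Hoxb cluster, Hoxb4, which passed the test, and Hoxb8, which did not. RefSeq's table for GRCm38.p6 matched 22 of the 38 Hox genes. The windows hold 250 bases upstream, at chr11:96318017-96318266 for Hoxb4 and chr11:96281655-96281904 for Hoxb8, on the plus strand.
Hoxb4: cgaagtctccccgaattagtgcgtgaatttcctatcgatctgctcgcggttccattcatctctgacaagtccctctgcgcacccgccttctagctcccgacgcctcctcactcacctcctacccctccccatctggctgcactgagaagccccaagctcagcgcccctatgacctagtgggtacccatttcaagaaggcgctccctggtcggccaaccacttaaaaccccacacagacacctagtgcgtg
Hoxb8: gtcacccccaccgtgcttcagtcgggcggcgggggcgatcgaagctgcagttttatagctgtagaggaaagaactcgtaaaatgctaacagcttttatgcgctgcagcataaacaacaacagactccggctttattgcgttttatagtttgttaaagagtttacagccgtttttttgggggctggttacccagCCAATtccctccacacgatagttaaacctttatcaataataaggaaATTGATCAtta
Capitals mark CCAAT and TGATNNAT, the latter resembling the joint site of a Hox and a Pbx protein, found on either strand. The Hoxb8 window holds 1 of each and the Hoxb4 window neither, and the 2 do not overlap. TGATNNAT was in 4 of 24 Hox windows (16.7%) and in 7.68% of all 32851 windows. CCAAT was in 14 of the 24 (58.3%) and in 33.8% of all, and TAATTA, the core of many homeodomain sites, in 2 (8.33%) and 4.84%.

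Of the 38 genes, 22 cleared the background on every array of 1 layer or both and were tested. The tested set held 6 Hoxa, 7 Hoxb, 5 Hoxc and 4 Hoxd genes. Of the 16 others, Hoxb1, Hoxb13, Hoxc8, Hoxc13, Hoxd3 and Hoxd12 were above background on no array, and 10 were on 1 to 5 arrays. All 6 arrays measured 12 genes, which were 5 Hoxa, 4 Hoxc and 3 Hoxd genes, and no Hoxb gene. The remaining 10 tested genes, all 7 Hoxb genes among them, passed through the intermediate layer alone. A gene that passes in that way is more likely to read lower in the outer layer, so their direction is not evidence of its own.

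**Figure D1:**
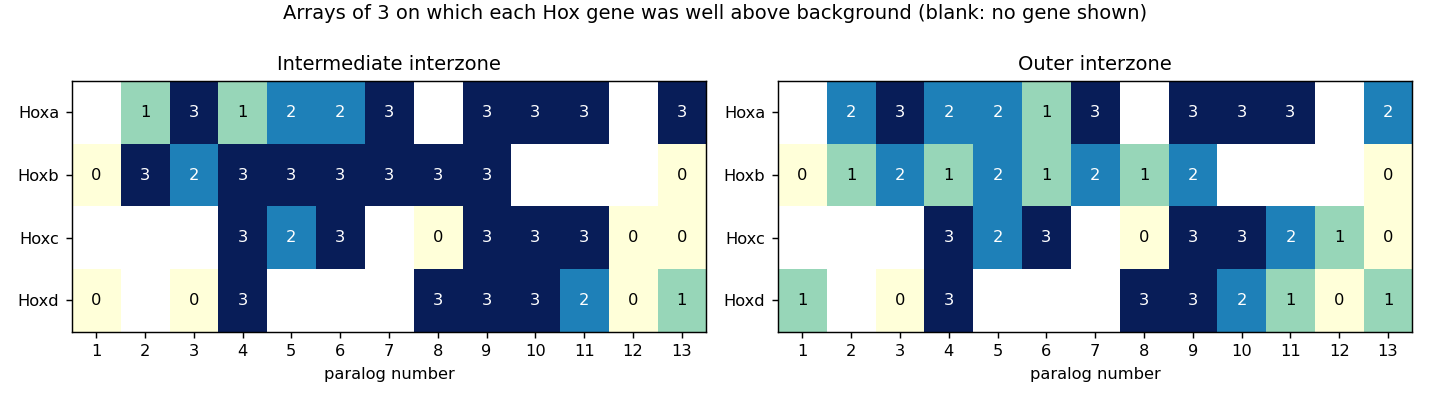
Number of arrays, of 3, on which each Hox gene was well above background in the intermediate (left) and outer (right) interzone, with clusters as rows and paralog numbers as columns. In the Hoxb row 7 genes reach 3 intermediate arrays, and no Hoxb gene reaches 3 outer arrays.

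The count of Hox genes above background differed between arrays. It was 24, 26 and 29 on the intermediate arrays and 13, 32 and 22 on outer replicates 1, 2 and 3. For Hoxb genes it was 7, 8 and 8, and then 0, 8 and 4. Outer replicate 2 had as many Hoxb genes above background as intermediate replicates 2 and 3, and the dimmest array had none. Outer replicate 3 and intermediate replicate 1 were alike in brightness, with a 75th percentile of 150 and 144, and had 4 and 7 Hoxb genes above background. The part of brightness in these counts was not tested.

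Between the layers, 3 Hox genes fell in the outer interzone and 0 rose, by limma with adjusted p at most 0.05. The 3 were Hoxb7, Hoxb4 and Hoxb2, and 19 tested genes did not pass. Among all 18003 genes tested, 4.05% passed, 1.57% higher and 2.48% lower in the outer layer, beside which the 3 lower calls are 13.6% of the 22. All 3 passed the background filter through the intermediate layer alone. Groups did not overlap for 10 of the 22 (45.5%), 4 higher and 6 lower, against 27.1% of all genes (15.6% higher and 11.4% lower). Among the 6 lower genes, Hoxb2, Hoxb6 and Hoxb8 had intermediate values all below the lowest signal well above background on outer replicate 1. Of the 12 Hox genes measured on all 6 arrays 0 passed, against 2.76% of 14775 genes so measured. In a limma fit of such genes alone 0 passed and 5 had an unadjusted p under 0.05. Their median difference was 0.40, with a range from -0.25 to 1.04, beside a median of 0.12 for all such genes.

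By position, 2 of 5 tested anterior genes, 1 of 7 central genes and 0 of 10 posterior genes passed, beside 4.05% of all genes tested. All 3 were Hoxb genes, and the tested Hoxb genes were 2 anterior, 4 central and 1 posterior. By cluster, 3 of 7 Hoxb genes passed, and no Hoxa, Hoxc or Hoxd gene. The difference between clusters or regions was not tested.

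**Figure D2:**
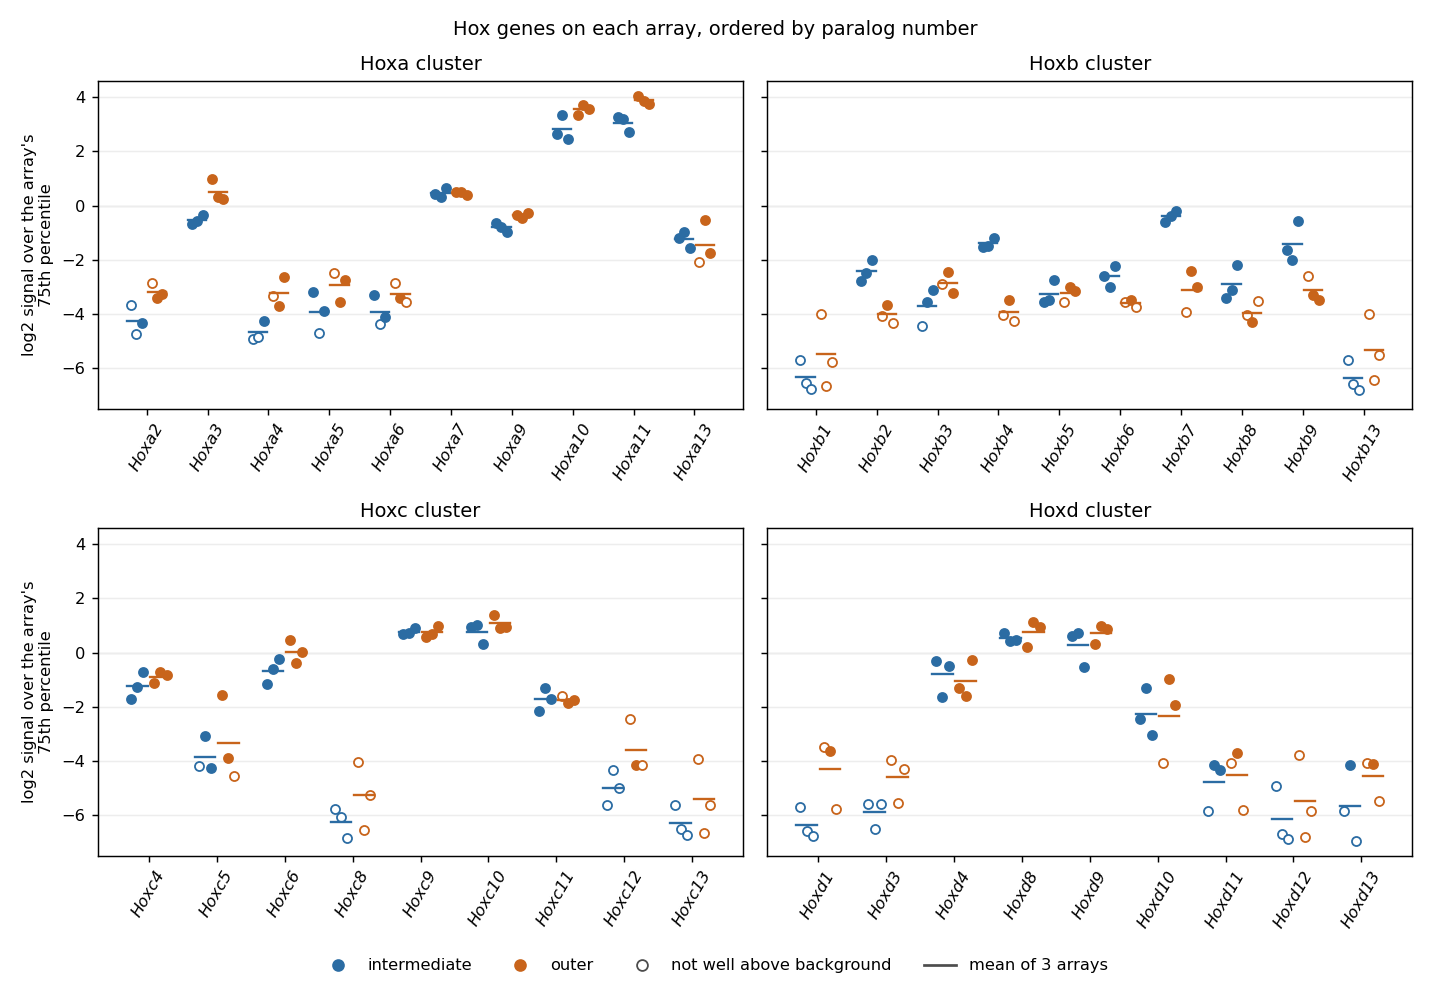
Log2 signal over the array's 75th percentile for every Hox gene on each of 6 arrays, by cluster and paralog number, with intermediate arrays in blue, outer arrays in orange, open points not well above background and lines for the mean of 3 arrays. For Hoxb4 and Hoxb7 all outer points lie below all intermediate points, and heights of different genes are not comparable.

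Hoxb7, a central gene of the Hoxb cluster, had the largest difference (probe at chr11:96151211-96151270, mm9). It read -0.60, -0.38 and -0.20 on the intermediate arrays and -3.94, -2.42 and -3.01 on outer replicates 1, 2 and 3. All outer values lay below all intermediate values, and outer replicates 2 and 3 were above background. The layer means were -0.39 ± 0.20 and -3.12 ± 0.76 (SD, n = 3), which is 6.62-fold lower in the outer layer, with a log2 difference of -2.73, SE 0.37 and adjusted p 0.0169 (limma). Without the dim outer replicate 1 the difference was -2.32 (adjusted p 0.0151, limma). It lost the call when any 1 intermediate array or outer replicate 3 was left out, with adjusted p from 0.0524 to 0.0805 (limma).

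Hoxb4, an anterior gene, gave the lowest adjusted p (probe at chr11:96182885-96182944, mm9). Its intermediate values were -1.52, -1.48 and -1.18, and its outer values were -4.03, -3.47 and -4.26. The layers were far apart, but only outer replicate 2 was above background. The means were -1.39 ± 0.18 and -3.92 ± 0.41 (SD, n = 3), a log2 difference of -2.53 with SE 0.24 and adjusted p 0.0074 (limma), or 5.77-fold lower in the outer layer. The call held when each array in turn was left out, with adjusted p from 0.0059 to 0.0459 (limma). The other measured genes of its number did not pass. Hoxc4 read -1.73, -1.27 and -0.72, then -1.11, -0.71 and -0.83 in the outer layer. Hoxd4 read -0.31, -1.63 and -0.48, then -1.30, -1.60 and -0.28. The layers overlapped for both, the differences being 0.35 (95% interval -0.31 to 1.01) and -0.25 (-1.34 to 0.83), and their signs turned under some settings.

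Hoxb2, which helps to pattern the hindbrain, read -2.77, -2.48 and -2.01 in the intermediate layer and -4.05, -3.66 and -4.31 in the outer layer (probe at chr11:96215122-96215181, mm9). The layers did not overlap, and only outer replicate 2 was above background. All intermediate values lay below -1.82, the lowest signal well above background on outer replicate 1, so that array could not measure such levels. The means of -2.42 ± 0.39 and -4.01 ± 0.33 (SD, n = 3) differed by -1.59, with SE 0.27 and adjusted p 0.0263 (limma). The call was lost without any 1 intermediate array or outer replicate 1 or 3, with adjusted p from 0.0523 to 0.103 (limma), and with slide as a block (-1.63, 0.0581), a fit whose difference rests on outer replicate 1, since the second slide held outer arrays only.

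The size of these differences changed with the treatment of the dim outer values and with the scaling. When each value that was not well above background was raised to the lowest signal that was on its array, Hoxb7 kept its call (-2.02, adjusted p 0.0248, limma). Hoxb4 then differed by -1.59 (0.133) and Hoxb2 by -0.63 (0.526), so 1 of the 3 calls remained, beside 2.82% of all genes called there. This setting was chosen after seeing the data. With normexp background correction the differences were smaller, at -1.38 for Hoxb7, -0.92 for Hoxb4 and -0.55 for Hoxb2. Under quantile normalization the differences were larger, at -3.32 for Hoxb7, -3.24 for Hoxb4 and -2.37 for Hoxb2, but none of the 3 passed, with adjusted p from 0.0508 to 0.0928 (limma). In bulk tissue, fewer cells that use a gene and less RNA per cell cannot be told apart.

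The other Hoxb genes mostly read lower in the outer layer without passing. Hoxb9 read -1.62, -2.0 and -0.57, then -2.59, -3.29 and -3.49, a difference of -1.73 (SE 0.41, adjusted p 0.0696, limma). Hoxb8 read -3.41, -3.10 and -2.20, then -4.02, -4.30 and -3.51, a difference of -1.04 (SE 0.36, adjusted p 0.162, limma). Neither gene's layers overlapped, but all intermediate values of Hoxb8 lay below -1.82, the lowest signal well above background on outer replicate 1. When same-numbered samples were paired as blocks, which called 5 Hox genes and 9.09% of all genes, Hoxb8 passed (adjusted p 0.0431, limma) and Hoxb9 did not (0.0676). Scaled to the median, as in the authors' values, Hoxb9 passed (-2.12, 0.0121). Hoxb6 also did not overlap, at -0.99 (adjusted p 0.0657, limma), and passed when scaled to the median (-1.38, 0.0208). Its intermediate values too were all below that lowest signal of outer replicate 1. In the outer layer Hoxb6 and Hoxb8 were above background on replicate 2 only, and Hoxb9 on replicates 2 and 3. With dim values raised as above, Hoxb8 differed by -0.31 (adjusted p 0.819, limma), Hoxb6 by -0.39 (0.690) and Hoxb9 by -1.47 (0.193). Hoxb5 differed by 0.04 (95% interval -0.60 to 0.68), and its sign turned to negative under quantile, median and normexp scaling. Hoxb3 was not tested, and its brighter probe read -4.43, -3.56 and -3.12 and then -2.89, -2.46 and -3.22.

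**Figure D3:**
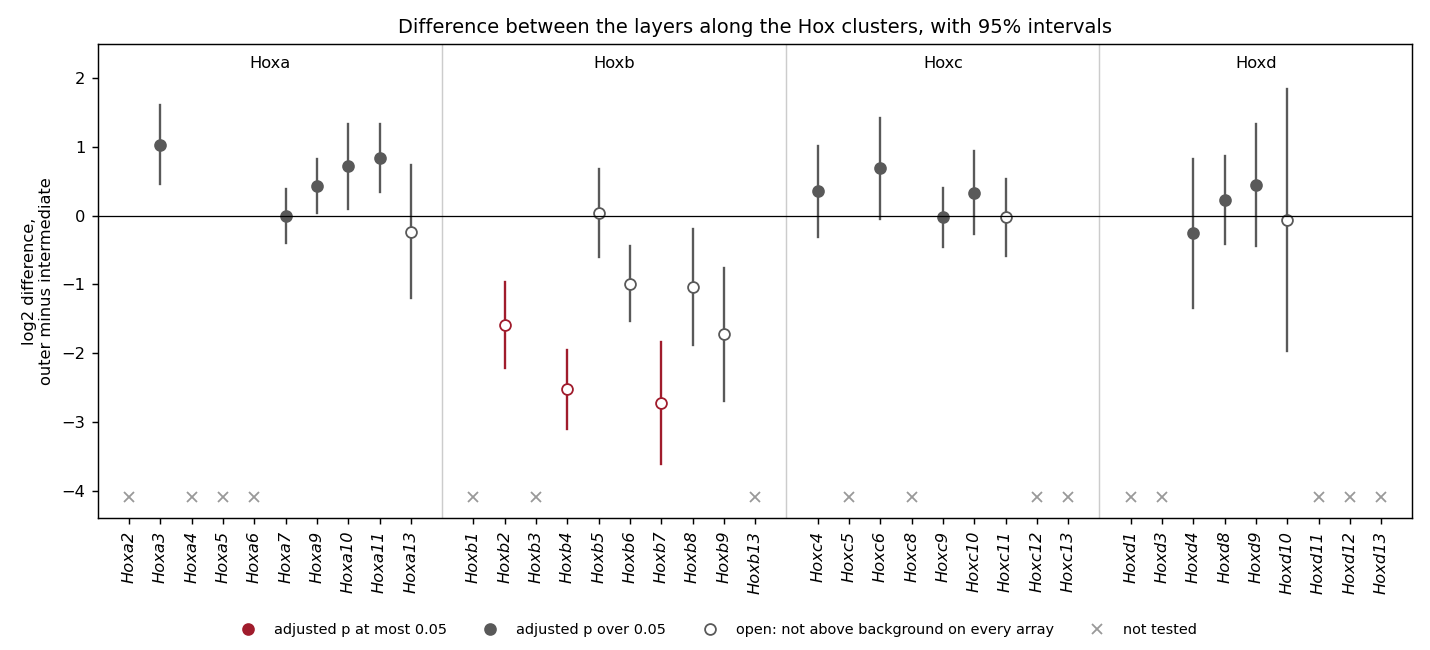
Log2 difference, outer minus intermediate, for each tested Hox gene by cluster and paralog number, with 95% confidence intervals from the limma fit, red for adjusted p at most 0.05, open circles for genes not above background on all 6 arrays and crosses for genes not tested. The 3 red genes lie between -2.73 and -1.59, and the 12 filled circles between -0.25 and 1.04.

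In the Hoxa cluster 5 genes were measured on all 6 arrays, of which 4 read higher in the outer layer and none passed. Of all 14775 genes so measured, 9419 read higher there. Hoxa3, which acts in the formation of neck and pharyngeal organs, read -0.68, -0.55 and -0.35 in the intermediate layer and 0.97, 0.31 and 0.24 in the outer layer. All 6 arrays measured it and the layers did not overlap, at a difference of 1.04 (SE 0.24, adjusted p 0.0657, limma). With slide as a block it passed (1.5, adjusted p 0.0228, limma), but there the difference again rests on outer replicate 1, the dimmest array. Scaled to the median, it was 0.64 (0.153).

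Hoxa11 and Hoxa10 pattern the middle and upper segments of the limb skeleton. Hoxa11 read 3.26, 3.18 and 2.70 in the intermediate layer and 4.04, 3.88 and 3.74 in the outer layer. Its 10 spots per array were above background in 60 of 60 readings. The difference was 0.84 (SE 0.21, adjusted p 0.0782, limma), against SDs between embryos of 0.30 and 0.15. It passed in the paired fit (0.0387), and was 0.45 (0.341) when scaled to the median. Hoxa10 read 2.65, 3.35 and 2.47, then 3.35, 3.72 and 3.56, a difference of 0.72 (adjusted p 0.181, limma). Hoxa9 differed by 0.44 (0.196), and its second probe, also measured on 6 arrays, by 0.70. The layers did not overlap for these 3 genes. Scaled to the median, the differences were 0.33 for Hoxa10 and 0.05 for Hoxa9.

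For the other measured Hox genes the 95% intervals included 0. Hoxa7, the paralog of Hoxb7, read 0.41, 0.31 and 0.66, then 0.49, 0.49 and 0.40. Its interval, -0.40 to 0.39, does not reach the difference seen for Hoxb7. Hoxc9 differed by -0.02 (95% interval -0.46 to 0.41) and Hoxc10 by 0.33 (-0.27 to 0.94). Hoxc11 differed by -0.02 (-0.59 to 0.54) and Hoxc6 by 0.69 (-0.04 to 1.42). In the Hoxd cluster Hoxd8 differed by 0.23 (-0.41 to 0.86) and Hoxd9, a posterior gene, by 0.45 (-0.44 to 1.33). Hoxa13, which patterns the hand and foot, differed by -0.23 (-1.20 to 0.73). Hoxd10 read -2.46, -1.30 and -3.02 and then -4.06, -0.96 and -1.94, of which the -4.06 of outer replicate 1 was not above background. Its interval ran from -1.96 to 1.84. With scaling to the median, Hoxc split into 1 higher and 4 lower and Hoxd into 1 higher and 3 lower, against 3 and 2, and 2 and 2, in the main setting.

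The 10 Hox genes above background on 1 to 5 arrays but not tested were Hoxa2, Hoxa4, Hoxa5, Hoxa6, Hoxb3, Hoxc5, Hoxc12, Hoxd1, Hoxd11 and Hoxd13. Asking for 2 arrays of 1 layer would have measured 29 of 38 genes, and for 1 array of either layer 32. Hoxb1, a hindbrain gene with 10 spots per array, was above background in 0 of 59 readings. A further reading, -3.63 on intermediate replicate 2, was well above background but was flagged as an outlier and left out.

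Transcripts that lie in or beside the clusters were listed with their neighbours. Hoxa11os, a noncoding RNA from the strand opposite Hoxa11, read 2.85, 3.19 and 3.06 in the intermediate layer and 4.04, 3.83 and 3.87 in the outer layer (probe at chr6:52199709-52199768, mm9). It rose by 0.88 (SE 0.17, adjusted p 0.0426, limma), close to the 0.84 of Hoxa11, whose test missed the threshold, and lost the call with slide as a block (1.01, 0.0608), where 1 outer array carries the difference, and with median scaling (0.49, adjusted p 0.250). Of 5 such noncoding transcripts on the array 2 were tested and 1 passed. Hotair differed by 0.37 (adjusted p 0.582, limma) on its only measured probe. Its other probes, and Hottip, were above background on no array.

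Evx1, a homeobox gene next to the posterior end of the Hoxa cluster, read -1.19, -1.08 and -1.14 in the intermediate layer. On the outer arrays it did not clear the background, and it fell at least 4.60-fold (adjusted p 0.0159, limma). Skap2, a signalling adaptor gene at the other end of that cluster, read 1.17, 1.14 and 1.36, then -0.90, -0.09 and -0.25, and fell by 1.64 (adjusted p 0.0203, limma). Of the 18 neighbours tested these 2 fell and 0 rose, beside 2.48% and 1.57% of all genes, and Evx1 had passed the filter through the intermediate layer alone. Evx2, beside the Hoxd cluster, differed by 0.66 (adjusted p 0.187, limma). Within the span of the Hoxb cluster, 22 further probes without a Hox gene name were on the array and 14 were above background on no array. Of the 22, 5 were tested and 0 passed (limma), with differences from 0.14 to 1.13.

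Partners and regulators of Hox genes were counted by list in the same limma fit, in which 4.05% of all genes tested passed. No list was tested as a set. The TALE proteins Pbx, Meis and Pknox bind DNA together with Hox proteins. Of 8 TALE genes tested 0 passed (limma). Polycomb proteins silence Hox clusters and Trithorax proteins keep them active. Of 23 such genes 0 passed, with a median difference of 0.19 beside 0.10 for all genes. The limb genes Tbx4, Pitx1 and Prrx1 were measured on all 6 arrays and Tbx5 on 5, and 0 of the 4 passed; Tbx4 and Pitx1 mark the hindlimb and Tbx5 the forelimb.

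Markers of the interzone and of other cells also differed between the layers. Of the 4 interzone genes 2 passed, both higher in the outer layer. Wnt4 differed by 3.41 (adjusted p 0.0110, limma) and Erg by 0.95 (0.0417), or 0.56 (0.236) for Erg when scaled to the median. Gdf5 and Wnt9a did not pass. Of 8 cartilage markers 7 rose in the outer layer, and their summed level ran from 6.23 to 7.14 in the intermediate and from 9.23 to 9.79 in the outer layer. Of 8 leukocyte markers 7 fell, with sums from 5.72 to 6.63 and from 2.62 to 4.12. Of 5 endothelial markers 4 fell, but their sums overlapped, at 4.96 to 5.36 and 4.83 to 5.94, and the endothelial receptor Kdr differed by 0.82. Of 5 nerve and Schwann cell markers 2 were tested, with a median difference of -1.04. Only 1 of them passed, the axonal gene Nefl, which fell by 2.53. The sums of all 5 ran from 2.04 to 2.21 in the intermediate and from 0.23 to 0.86 in the outer layer. Of the muscle, tendon, epidermal and erythroid markers none passed. No leukocyte, endothelial or cartilage marker was below background on all arrays of both layers. Leukocyte sums and nerve sums were lower in the outer layer, as most Hoxb values were, and cartilage sums were higher. The part of these lists in the result was not tested.

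**Figure D4:**
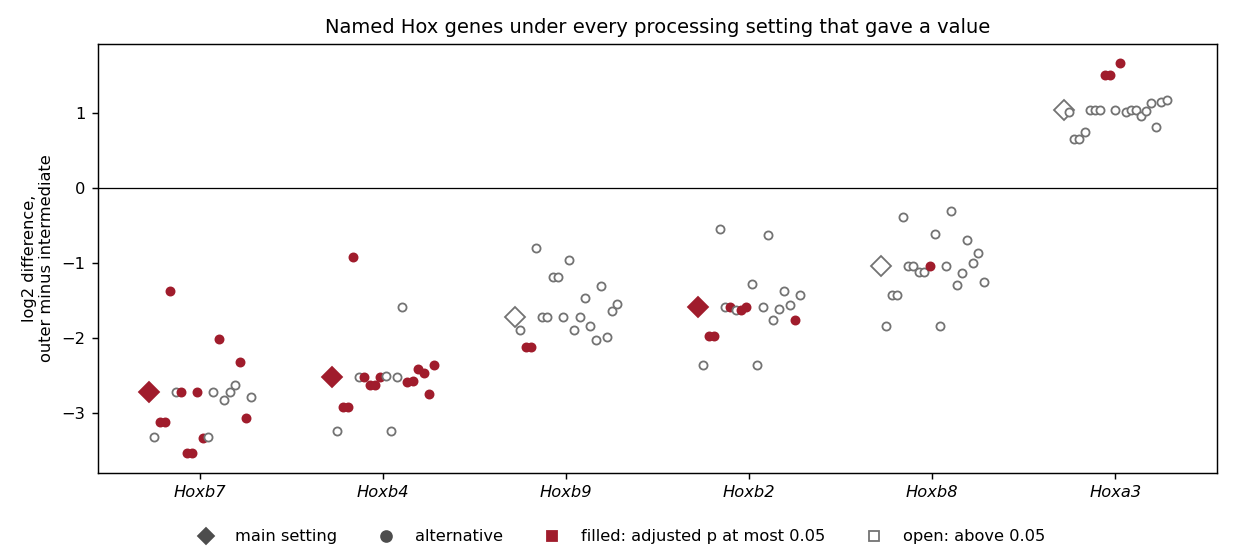
Log2 difference, outer minus intermediate, of 6 named Hox genes under the main setting (diamonds) and every alternative that gave a value (circles), filled red where adjusted p was at most 0.05. All values of Hoxb7, Hoxb4, Hoxb9, Hoxb2 and Hoxb8 lie below 0 and all of Hoxa3 above 0, while many lie on the other side of the threshold.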

How the data were processed

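Per the file headers, Agilent Feature Extraction 10.7.3.1 made the scanner files, in which each spot has a processed signal intensity with background subtracted. The authors' deposited table holds the same intensity scaled to each array's median, and its 6 columns of per-sample flags were not used. Partek 6.11.0321 is named in the submitters' processing notes, with no step. Positions are probe positions in mm9, without exon or UTR annotation. RefSeq's GRCm38.p6 tables gave names for 26762 of 28390 probes that carry a RefSeq accession, and the promoter windows.

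Spots of a probe were averaged as log2 signal minus the array's 75th percentile. Probes above background on all 3 arrays of a layer were tested, with the brightest per gene. The test was limma 3.58.1 under R 4.3.3 (two-sided, Benjamini-Hochberg over all genes), checked on simulated data. The few arrays limit the precision. Where no outer array was above background, the fold is a bound against the lowest signal above background. Same-numbered samples correlated at 0.372 to 0.563 in their deviations and others at most at 0.114. The labels do not state a pairing, so the main test was unpaired and the numbers were a block only in alternative fits. Each Hox gene that passed, or did not overlap with a difference of at least 1, was named with its paralogs, and from each list those that passed. Others singled out were chosen after their values were seen. The members and lists were chosen with earlier results of these data known. Some items, among them 1 Hox gene, are not reported here, and the Hox counts leave that gene out.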

Additional observations from a re-analysis of the deposited data

How the results depend on the processing

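By limma the main setting called 729 genes and 3 Hox genes. Quantile normalization gave 446 and 0 (Hox), scaling to the median 1095 (158 higher and 937 lower, against 282 and 447) with 5 Hox genes, and the authors' values the same 1095 and 5. Normexp gave 922 genes and 2 Hox genes, Hoxb4 and Hoxb7. Without a filter 0 genes passed (4268 with unadjusted p under 0.05), among them 0 Hox genes (12). Requiring all 6 arrays gave 460 and 0 (5), where the Hoxb genes had no value. The unmoderated test gave 0 (3250) and 0 (8). Raising dim values to the floor gave 507 genes and 1 Hox gene. Slide as a block gave 1215 and the shared slide alone 1314. The replicate block gave 1636 genes and added Hoxa11 and Hoxb8 to the 3 Hox calls, which made 5. With quantile normalization the block gave 68 and 0. With slide added to the block, the difference again rests on outer replicate 1, at 1.65 for Hoxa3, 1.59 for Hoxc6 and -3.34 for Hoxb7. Leaving out 1 array gave 66 (without intermediate replicate 3) to 1111 genes (without outer replicate 2), and 1 to 3 Hox genes, Hoxb4 each time.

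Of the named differences, Hoxa3, Hoxb2, Hoxb4, Hoxb7, Hoxb8 and Hoxb9 kept their direction under every setting that gave them a value. Differences near 0 turned: Hoxc4 to -0.038 under median scaling and the authors' values, Hoxa7 to 0.025 with slide as a block or the shared slide, to 0.072 with both blocks, and to between -0.080 and 0.096 with 1 array left out, and Hoxd4 to between -0.67 and 0.017 with 1 array left out. The causes were not tested. Dim signal limits the Hoxb values of outer replicate 1. On outer replicate 3, Hoxb2, Hoxb4, Hoxb6 and Hoxb8 were not above background either.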

Other observations

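Among the 10 tested posterior Hox genes, Hoxa10, Hoxa13, Hoxd9 and Hoxd10 read highest in replicate 2 of both layers, which is 40.0% against 29.0% of all 18003 genes tested. Over all 22 tested Hox genes the share was 18.2%, below that of all genes. This pattern was noticed after the values were seen and was not tested. For Hoxa13 and Hoxd10 the value of outer replicate 1 was not above background, which limits the comparison of replicates there. Hoxa11, also posterior, was highest in replicate 1 of both layers. The interzone ligand Gdf5 was likewise highest in replicate 2, at 6.72 and 6.81, as was the forelimb gene Tbx5, at 0.51 and 0.80. Tbx5 was above background on only 2 of the 3 outer arrays. The labels do not say that a shared number marks 1 embryo.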
